A study of Mus with 7 samples.

Results

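Among 31053 genes counted in fetal liver-derived macrophages (FLMs), 8 genes of liver X receptor (LXR) signaling and cholesterol efflux were followed by symbol: the receptors Nr1h2 and Nr1h3, the sterol transporters Abca1 and Abcg1, the secreted lipid-handling proteins Apoe, Pltp and Lpl, and the acyltransferase Lpcat3. All 8 were found in the files. The FLMs were self-renewing macrophages grown from the livers of wild-type C57BL/6J mouse fetuses, and all of them were cultured with 30 ng/mL GM-CSF. Con cells were kept in 10% FBS and collected untreated before the 24 h step in reduced serum. Veh cells were kept for 24 h in 0.25% FBS with 8.3 µM BSA, and DHA cells in the same medium with 25 µM docosahexaenoic acid bound to 8.3 µM BSA. Both were collected at that point (Veh.LPS.0 and DHA.LPS.0), or after 1 h or 4 h with 20 ng/mL LPS (Veh.LPS.1, Veh.LPS.4, DHA.LPS.1 and DHA.LPS.4), with the DHA or BSA medium replaced when LPS was added. Whether the medium that carried the LPS held DHA is not stated. There was 1 library for each of the 7 conditions, so differences between conditions could not be checked against replicates and no p-value is given. Every interval below is a 95% interval that covers counting error only. The libraries compared share samples: Veh.LPS.0 enters the serum comparison, both Veh LPS comparisons and the 0 h DHA comparison.

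LXRs are nuclear receptors that bind oxysterols and, with an RXR partner, switch on genes that move cholesterol out of the cell. Nr1h2 (LXRβ) is found in most tissues, whereas Nr1h3 (LXRα) is typical of liver, intestine, adipose tissue and macrophages. In macrophages the well-known targets include Abca1, which passes cholesterol and phospholipid to lipid-poor apolipoproteins, Abcg1, which passes cholesterol to high-density lipoprotein, and Apoe, which accepts it. Polyunsaturated fatty acids and toll-like receptor ligands are both known to dampen LXR target genes in some cells.

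In the GRCm38.p6 annotation, matched by symbol, Nr1h2 (ENSMUSG00000060601) lies on chromosome 7 from 44549616 to 44553968 and Nr1h3 (ENSMUSG00000002108) on chromosome 2 from 91184061 to 91202829. Abca1 (ENSMUSG00000015243) spans 53030789 to 53159988 on chromosome 4 and Abcg1 (ENSMUSG00000024030) 31057694 to 31117984 on chromosome 17. Apoe (ENSMUSG00000002985) spans 19696244 to 19701310 on chromosome 7, Lpl (ENSMUSG00000015568) 68880555 to 68906932 on chromosome 8, Pltp (ENSMUSG00000017754) 164839518 to 164857708 on chromosome 2, and Lpcat3 (ENSMUSG00000004270) 124663094 to 124704716 on chromosome 6. All 8 are protein-coding. The spans of Nr1h3 and Acp2, of Pltp and Ctsa, and of Lpcat3 and Emg1 overlap at an end, so counts of these 3 members could hold or lose reads of a neighbor.

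After the limits of the study (over 20000 UMIs, at least 2000 genes and under 20% mitochondrial UMIs) the libraries held 692 to 3073 cells and 22045775 to 125716982 UMIs, a UMI being one captured molecule. At least 20% mitochondrial UMIs were found in 29.0% to 54.7% of the deposited barcodes of Con and Veh and in 74.4% to 80.0% of those of DHA. All 9 macrophage markers were detected in all 7 libraries, and each of the 11640 cells had UMIs of at least 3 of them. The Kupffer cell markers Timd4, Vsig4 and Marco and the hepatocyte markers Alb and Ttr were at 0 in every library. Other markers of these lists were found. The summed hepatocyte markers had 5.48 to 7.71 CPM over the libraries and the summed Kupffer cell markers 0.36 to 1.16 CPM. In DHA.LPS.4 these sums were Afp alone (7.30 CPM) and Cd5l alone (0.36 CPM). The summed neutrophil markers had 0.06 to 7.53 CPM, highest in DHA.LPS.4. No cell had 3 markers of another cell type. Apart from the hepatocyte and dendritic lists, no such list had 3 genes with a UMI in any library, so no cell could reach 3. No cell type that should lack these genes was thus at hand to measure free RNA. Levels are UMIs per 1000000 UMIs of the library (CPM), summed over its cells.

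Nr1h2 was close to level across the conditions when scaled by library totals. Its log2 ratio of 4 h of LPS to 0 h was 0.13 in Veh and 0.18 in DHA. Relative to the median log2 ratio of all genes these values were 0.49 and 0.47, so the level course rests on the scaling. The CPM of Nr1h2 was 24.3 in Con (23.5 to 25.2), 26.8, 28.7 and 29.3 in the Veh series at 0, 1 and 4 h, and 27.6, 28.7 and 31.3 in the DHA series, with an interval of 29.1 to 33.8 for DHA.LPS.4. The highest library stood 1.29-fold above the lowest, and only Con was apart from its neighbor in the order. After thinning every cell to 20000 UMIs, a Nr1h2 UMI was found in 39.0% to 45.1% of cells.

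Nr1h3 was sparse in every library. The UMIs numbered 168 in Con, 93, 72 and 46 in the Veh series at 0, 1 and 4 h, and 17, 24 and 23 in DHA at the same hours. Its CPM was thus 1.34 in Con, 0.94, 0.76 and 0.79 in the Veh series and 0.49, 0.75 and 1.04 in the DHA series. Neighbors in this order all had overlapping intervals. The lowest library, DHA.LPS.0, had an interval of 0.28 to 0.78 CPM, below that of Con (1.14 to 1.55 CPM). A Nr1h3 UMI was found in 2.34% to 5.50% of cells without thinning and in 0.57% to 2.89% at equal depth.

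Abca1 was nearly silent except in Con and after 4 h of LPS. There were 102 Abca1 UMIs in Con, 13 in Veh.LPS.0, 6 in Veh.LPS.1, 72 in Veh.LPS.4, 1 in DHA.LPS.0, 3 in DHA.LPS.1 and 9 in DHA.LPS.4. The level was 1.23 CPM in Veh.LPS.4 (0.96 to 1.55) and 0.81 CPM in Con (0.66 to 0.98), and 0.41 CPM in DHA.LPS.4 (0.19 to 0.77). In the other 4 libraries it was 0.03 to 0.13 CPM. At equal depth the share of cells with an Abca1 UMI was 1.91% for Veh.LPS.4, 1.44% for Con, 1.01% for DHA.LPS.4 and no more than 0.20% elsewhere. Of the 795 DHA.LPS.1 cells, 3 held an Abca1 UMI without thinning (0.377%, 0.0779 to 1.10). None did after thinning, which allows up to 0.463% (exact binomial) of cells with a UMI at that depth and sets no limit on cells expressing the gene.

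Abcg1 went the other way with LPS. Its CPM was 28.1 in Con (27.2 to 29.1), 19.1 in Veh.LPS.0 (18.2 to 20.0), 12.4 in Veh.LPS.1 (11.7 to 13.1) and 5.79 in Veh.LPS.4 (5.19 to 6.43). With DHA it was 12.1 at 0 h (10.95 to 13.3), 8.86 at 1 h (7.86 to 9.96) and 2.90 at 4 h (2.24 to 3.71). DHA was below Veh at each hour, and Veh.LPS.1 and DHA.LPS.0 were the only neighbors in the order whose intervals overlapped. At equal depth an Abcg1 UMI was found in 42.2% of Con cells, in 30.2%, 21.6% and 10.3% of Veh cells and in 20.2%, 13.2% and 4.62% of DHA cells at 0, 1 and 4 h. The highest library stood 9.69-fold above the lowest.

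**Figure D1:**
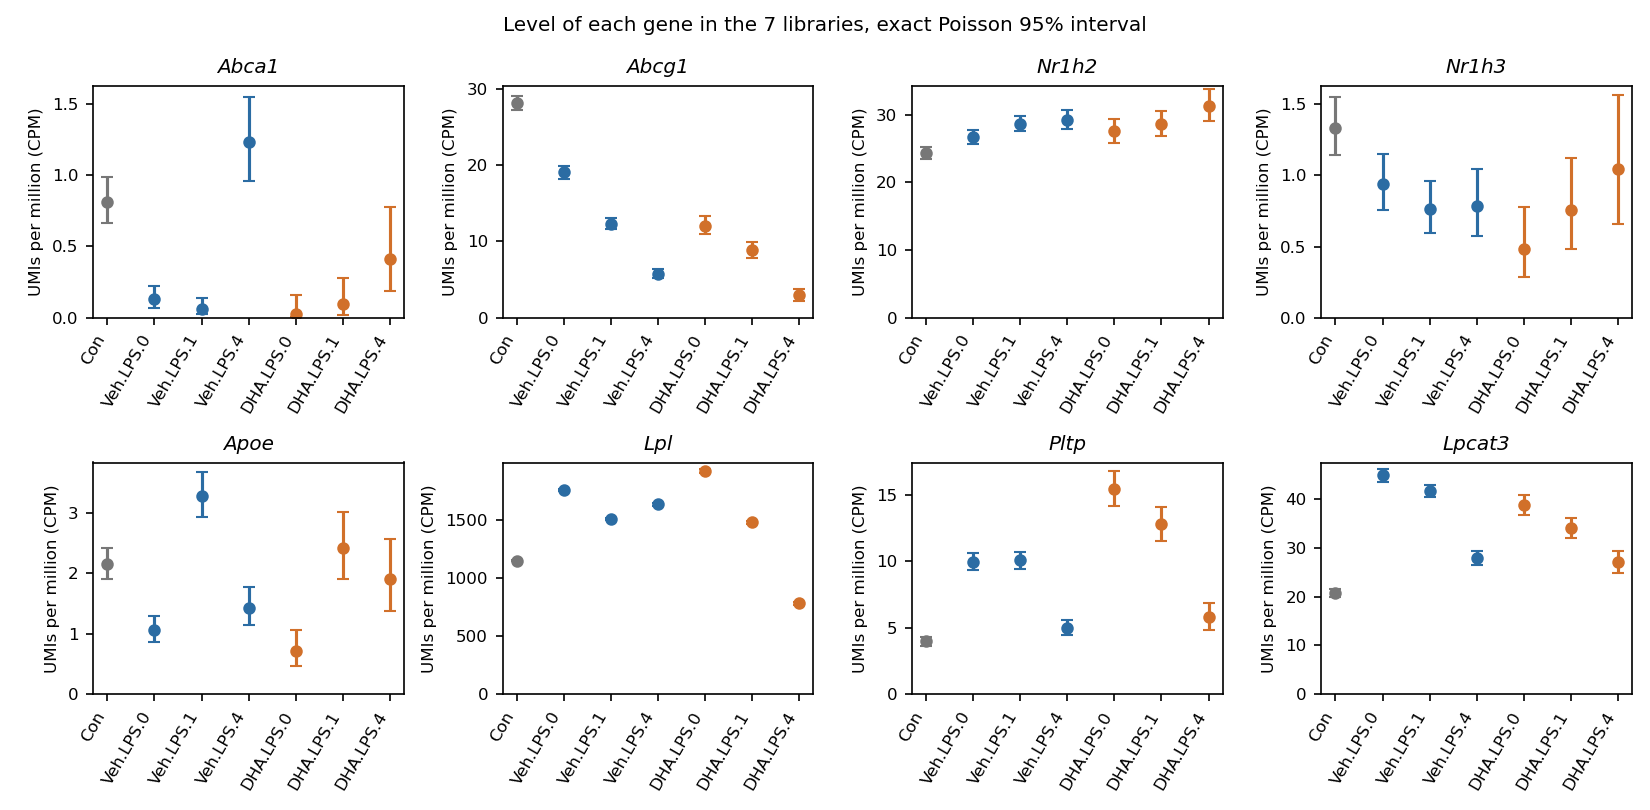
CPM of each of the 8 genes (vertical axes, each from 0) in the 7 libraries, 1 point per library with its exact Poisson 95% interval, gray for Con, blue for Veh and orange for DHA. Abcg1 falls from 28.1 CPM in Con to 2.90 CPM in DHA.LPS.4, Nr1h2 stays between 24.3 and 31.3 CPM, and Lpl in DHA.LPS.4 (781 CPM) lies below all other libraries.

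Apoe, the apolipoprotein that carries cholesterol from macrophages, was also sparse. Con held 270 UMIs of it, a level of 2.15 CPM. The Veh series held 105, 311 and 84 UMIs at 0, 1 and 4 h, for levels of 1.06, 3.29 and 1.43 CPM, and the DHA series held 25, 77 and 42 UMIs, for levels of 0.71, 2.42 and 1.91 CPM. The 1 h libraries were the highest of both treatments, at 3.09-fold (2.47 to 3.90) the 0 h level in Veh and 3.39-fold (2.14 to 5.56) in DHA. A UMI of Apoe was found in at most 9.14% of the cells of any library, under the share limit used for counting below.

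Pltp, which moves phospholipid between lipoproteins, was highest in DHA without LPS. Its CPM was 3.97 in Con. In the Veh series it was 9.97, 10.1 and 4.98 at 0, 1 and 4 h, and in the DHA series 15.4 (14.2 to 16.8), 12.8 (11.6 to 14.1) and 5.81 (4.84 to 6.90). The Veh intervals at 0 h and 1 h were 9.36 to 10.6 and 9.45 to 10.7 CPM, so these libraries were alike within counting error, and so were the 4 h libraries of both treatments.

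Lpl, the lipase that frees fatty acids from triglyceride-rich lipoproteins, had a UMI in 99.6% or more of the cells of every library. Con stood at 1148 CPM (1142 to 1154). The Veh series stood at 1758, 1504 and 1633 CPM at 0, 1 and 4 h and the DHA series at 1921, 1479 and 781 CPM (770 to 793). The counting interval of each library was apart from that of its neighbor in the order. Those intervals leave out the spread between cells. At equal depth the variance of Lpl over cells was 11.7 to 16.8 times its mean, where counting error alone would make them equal. Close libraries such as Veh.LPS.1 and DHA.LPS.1 are thus not shown to differ. In Veh the Lpl level after 4 h of LPS was 0.93-fold (0.92 to 0.94) that at 0 h with library totals but 1.25-fold with TMM scaling (edgeR's trimmed mean of M values), whereas in DHA it was 0.41-fold (0.40 to 0.41).

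Lpcat3, which loads polyunsaturated acyl chains onto lysophospholipids, was lowest in Con. Its CPM was 20.8 in Con (20.0 to 21.6). The Veh series gave 44.9, 41.7 and 27.9 at 0, 1 and 4 h, and the DHA series 38.8, 34.0 and 27.0. DHA was 0.86-fold (0.81 to 0.92) Veh at 0 h and 0.82-fold (0.76 to 0.87) at 1 h, both inside the limit of 1.5-fold. Over all deposited barcodes these ratios were 1.007-fold and 1.009-fold. The 4 h libraries differed by less than counting error, at 0.97-fold (0.88 to 1.06).

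Members were counted as past the limits when their CPM differed by more than 1.5-fold and at least 25% of the cells in 1 or both of the libraries held a UMI. These limits follow the study's comparisons of DHA and Veh after LPS and the LPS-induced genes it set beside them. For DHA against Veh before LPS the study asked for 50% of cells. In another comparison of LPS with 0 h it asked for 50% of cells and over 2-fold. The counts under those stricter limits are given where they differ. All such counts are of size alone and are not counts of differentially expressed genes. The study set its limits on Seurat-normalized values of single cells, whereas here they are set on ratios of summed CPM. A gene past or inside them here need not be so in the study. Abca1, Apoe and Nr1h3 never reached the share of cells, so they could not be counted in any comparison.

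The serum comparison sets cells after 24 h of 0.25% FBS with BSA, before any LPS, against Con cells collected before that step. It cannot tell reduced serum with BSA apart from 24 h of further culture. Between Veh.LPS.0 and Con, 3 of the 5 members with enough cells were past the limits, where 17.1% of all 8252 genes with enough cells were and 9.31% were higher. Pltp rose 2.51-fold (2.25 to 2.80), Lpcat3 2.16-fold (2.05 to 2.26) and Lpl 1.53-fold (1.52 to 1.54). Abcg1 was 0.68-fold (0.64 to 0.72), just inside the limit. Of the members that could not be counted, Abca1 had 0.16-fold (0.08 to 0.29) and Apoe 0.50-fold (0.39 to 0.62) the level of Con. With TMM scaling Abcg1 passed the limit and Lpl did not.

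Other genes around LXR were taken from lists. Of 15 other LXR target genes, 6 had enough cells and 3 were higher in Veh.LPS.0 than in Con: Scd1, the stearoyl-CoA desaturase, at 42.3 against 0.91 CPM, Scd2 at 369 against 163 CPM, and Mylip, which degrades the LDL receptor, at 7.80 against 5.01 CPM. The median log2 ratio of the 6 with enough cells was 0.53, where that of all genes was -0.07. Of 15 other genes of sterol efflux, storage and oxysterols, 10 had enough cells and 6 were higher, led by Stard4 (57.6 against 24.7 CPM), Cyp27a1 (9.63 against 4.25 CPM) and Scarb1 (58.2 against 26.2 CPM). None of either list was lower. The list of RXRs, PPARs and coregulators had 10 of 13 genes with enough cells, and none passed in either direction. Among 8 other lysophospholipid acyltransferases, Mboat1 was lower (11.6 against 19.4 CPM) and the other 5 with enough cells were inside the limits. Of 5 genes that control LPL protein only Lmf1 had enough cells, with a log2 ratio of 0.28.

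With library totals, Abcg1 was past the limits in Veh cells at 1 h and 4 h of LPS, and Pltp and Lpcat3 at 4 h only. At 1 h, 1 of 5 members was past the limits, where 8.39% of 8089 genes were: Abcg1, at 0.65-fold (0.60 to 0.70). At 4 h, 3 of 5 members were past the limits, all lower, where 48.5% of 8385 genes were past them and 38.3% were lower. Abcg1 was 0.30-fold (0.27 to 0.34), Pltp 0.50-fold (0.44 to 0.57) and Lpcat3 0.62-fold (0.59 to 0.66) the 0 h level. The share of members is thus close to that of all genes at 4 h. None of these genes passed the study's stricter limits for LPS, at 1 h or at 4 h. Abcg1 and Pltp missed them at 4 h only through the share of cells, 49.0% and 29.5% in Veh.LPS.0. Of all genes, 138 of 5777 were higher and 35 lower under those limits at 1 h. At 4 h 381 of 6297 were higher and 1066 lower. Abca1 was 9.33-fold (5.13 to 18.4) higher at 4 h on 72 against 13 UMIs, in too few cells to count.

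The 4 h counts depend on the scaling, because the median log2 ratio of all genes was -0.36 with library totals and 0.07 with TMM. Genes that were higher made up 21.1% of those past the limits with totals and 50.6% with TMM, and at 1 h 49.5% and 61.3%. Under TMM only Abcg1 of the members remained past the limits at 4 h and none at 1 h. Relative to the median of all genes, the log2 ratio at 4 h was -1.36 for Abcg1, -0.64 for Pltp and -0.32 for Lpcat3, against 0.26 for Lpl and 0.49 for Nr1h2.

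Of the other LXR target genes, Mylip alone was past the limits at 1 h (4.86 against 7.80 CPM). At 4 h, 5 of 6 were lower with library totals, led by Mylip (2.87 CPM), Scd1 (17.4 against 42.3 CPM) and Smpdl3a, a phosphodiesterase (4.66 against 9.64 CPM). Among partners and coregulators, 4 of 10 were lower at 4 h, close to the 38.3% of all genes, led by the LXR partner Rxra (2.63 against 10.3 CPM) and the coactivator Ncoa1 (4.27 against 15.3 CPM), with the corepressor subunit Tbl1xr1 (18.6 against 35.2 CPM). Of the sterol efflux and storage list, 2 of 10 were higher and 4 lower at 4 h, with the largest changes in Cyp27a1 (2.94 against 9.63 CPM), Scarb1 (21.0 against 58.2 CPM) and Abca7 (5.03 against 11.2 CPM), and at 1 h Stard4 alone passed (90.2 against 57.6 CPM). Of the acyltransferases at 4 h, Lpcat2 was higher among 6 with enough cells, and 3 were lower, Mboat1 (3.99 against 11.6 CPM) and Lpcat1 (5.02 against 13.9 CPM) most. Lmf1, which matures LPL, was lower (8.84 against 16.5 CPM). The median log2 ratio at 4 h was -0.97 for the LXR targets, -0.49 for the partners, -0.52 for the sterol list and -0.73 for the acyltransferases, where that of all genes was -0.36. In every comparison the genes of the lists were scaled by library totals only. Those near the limit, such as Lmf1 and Tbl1xr1 here, could fall inside it with TMM. The TMM factor was 1.10 for Veh.LPS.0 and 0.82 for Veh.LPS.4, which raises every ratio at 4 h. The lower LXR targets not named at 4 h are also near the limit. The 1 of 6 LXR targets with a higher level at 4 h would stand higher still.

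**Figure D2:**
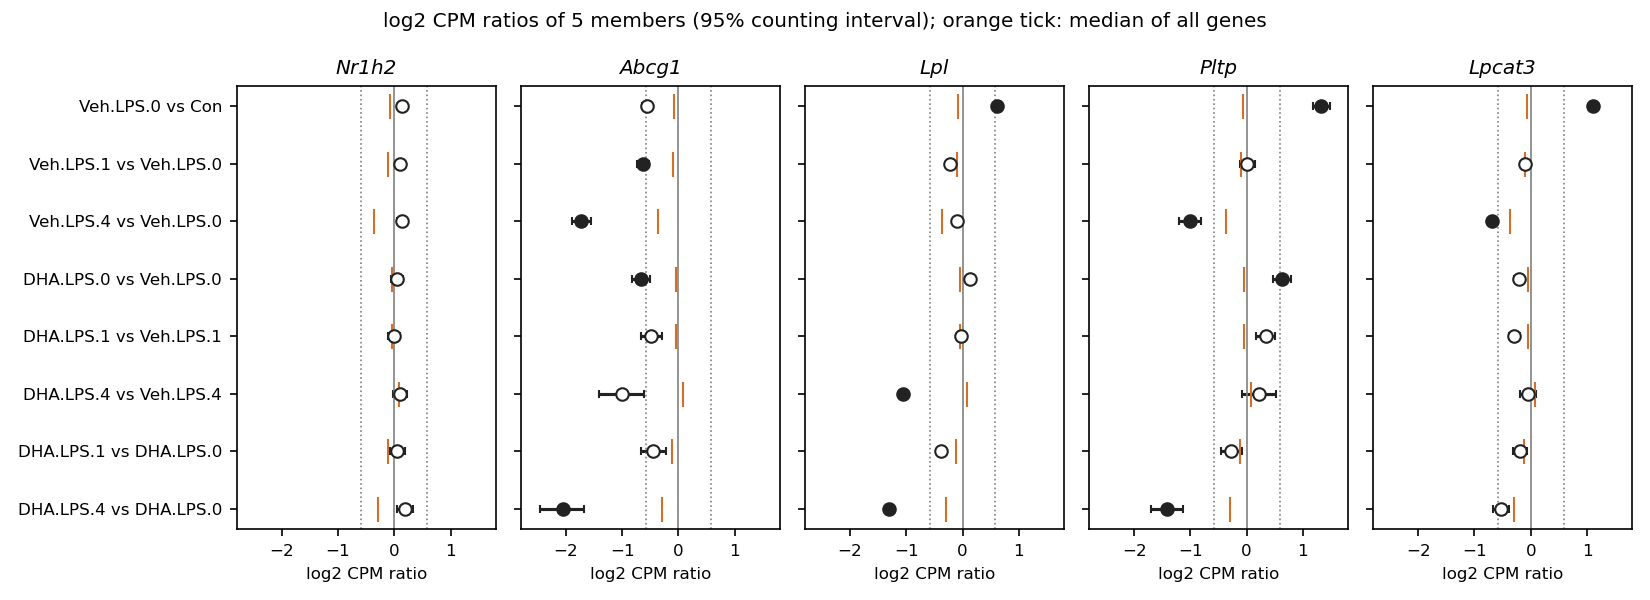
log2 CPM ratio (horizontal axes) of the 5 members that had enough cells in at least 1 of the 8 comparisons (rows), with the exact binomial 95% counting interval, filled where past both limits and open otherwise (Abcg1 and Pltp lacked enough cells in DHA.LPS.4 vs Veh.LPS.4), dotted lines at 1.5-fold and an orange tick at the median of all genes. Abcg1 lies left of 0 in all 8 rows, and Lpl is filled on the left only for DHA.LPS.4.

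In DHA cells Abcg1, Pltp and also Lpl were lower after 4 h of LPS than before it. At 1 h no member was past the limits, where 9.63% of 8474 genes were. At 4 h, 3 of 5 were lower, where 43.2% of 8477 genes were past the limits and 33.6% were lower. Abcg1 was 0.24-fold (0.18 to 0.31), Pltp 0.38-fold (0.31 to 0.46) and Lpl 0.41-fold (0.40 to 0.41) the 0 h level. Genes that were higher made up 22.3% of those past the limits at 4 h and 46.6% with TMM, and 48.4% and 63.9% at 1 h, and the 3 members stayed past the limits under TMM. Under the study's stricter limits for LPS only Lpl was past them at 4 h, where 318 of 6318 genes were higher and 844 lower. Abcg1 and Pltp missed only the share of cells, with 38.7% and 43.0% in DHA.LPS.0. Lpcat3 (0.70-fold, 0.63 to 0.77) and Nr1h2 (1.14-fold, 1.03 to 1.25) were inside the 1.5-fold limit at 4 h. The sparse members were higher at 4 h, in too few cells to count. Abca1 was 14.3-fold (1.98 to 627) on 9 against 1 UMIs, Apoe 2.67-fold (1.59 to 4.57) and Nr1h3 2.15-fold (1.10 to 4.29). Of the LXR targets, Scd2 (101 against 167 CPM) was the only one past the limits at 1 h. At 4 h, 3 of 4 were lower: Scd2 (29.3 CPM), Smpdl3a (8.98 against 17.4 CPM) and Srebf1 (10.5 against 16.4 CPM). At 4 h, Ncoa1 (4.72 against 16.9 CPM) and Rxra (4.49 against 12.1 CPM) were lower among 10 partners. The sterol list had 2 of 10 genes higher and 4 lower, the acyltransferases 1 of 6 higher and 4 lower, and Lmf1 was lower (10.7 against 18.6 CPM).

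The LPS effect on Lpl differed between the treatments far beyond counting error. At 4 h its log2 LPS effect was -1.30 in DHA and -0.11 in Veh (0.32 in Veh with TMM), a difference of -1.19 (-1.22 to -1.16). For Pltp the difference was -0.41 (-0.75 to -0.07), and for Abcg1 -0.33 (-0.75 to 0.08), within counting error. For the sparse genes it was 0.99 for Apoe (0.16 to 1.81) and 1.37 for Nr1h3 (0.33 to 2.40), both resting on fewer than 50 UMIs in each DHA library. At 1 h the difference was -0.15 (-0.17 to -0.13) for Lpl and -0.29 (-0.51 to -0.06) for Pltp.

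DHA against Veh is the comparison the study was built for. Before LPS, 2 of 5 members were past the limits, where 2.03% of 8434 genes were: Abcg1 at 0.63-fold (0.57 to 0.70) and Pltp at 1.55-fold (1.39 to 1.72). With the share of 50% that the study set before LPS, neither was counted and no member was past the limits. The larger share was 49.0% of Veh.LPS.0 cells for Abcg1 and 43.0% of DHA.LPS.0 cells for Pltp. In that setting 56 of 6276 genes were higher and 43 lower. At 25% of cells both kept their side with TMM and with median-of-ratios scaling, under which 63.7% of the genes past the limits were higher, against 53.2% with library totals. Lpl was 1.09-fold (1.08 to 1.10). Nr1h3 was 0.52-fold (0.29 to 0.87) on 17 against 93 UMIs, and Abca1 0.22-fold (0.01 to 1.44) on 1 against 13 UMIs.

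At 1 h of LPS no member was past the limits, where 3.07% of 7794 genes were. Abcg1 was 0.72-fold (0.63 to 0.82), Pltp 1.27-fold (1.13 to 1.43) and Lpl 0.98-fold (0.97 to 0.99), or 1.004-fold with TMM. Apoe, in too few cells to count, was 0.74-fold (0.57 to 0.95) on 77 against 311 UMIs. Over all deposited barcodes the Apoe ratio was 1.17-fold.

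At 4 h of LPS, Lpl was 0.48-fold (0.47 to 0.49) the Veh level, the 1 member past the limits of 3 with enough cells, where 4.64% of 7672 genes were. Of the genes past the limits 47.8% were higher with library totals and 26.8% with TMM, and Lpl stayed lower under both. Abcg1 was 0.50-fold (0.38 to 0.66) but missed the share of cells, with a UMI in 22.9% of Veh.LPS.4 and 6.36% of DHA.LPS.4 cells without thinning. The median depth of these libraries was 56239 and 29631 UMIs per cell, and at equal depth the shares were 10.3% and 4.62%. The share limit was applied without thinning. Abca1 was 0.33-fold (0.15 to 0.67) on 9 against 72 UMIs. Pltp (1.17-fold, 0.94 to 1.44) and Lpcat3 differed by less than counting error, as did Nr1h2 (1.07-fold, 0.98 to 1.17).

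Of the other LXR targets, 1 was higher and 4 of 6 lower in DHA at 0 h, 1 higher and 3 of 5 lower at 1 h, and 3 of 4 lower at 4 h. Among all genes with enough cells, 91 of 8434 were higher and 80 lower at 0 h. At 1 h 104 of 7794 were higher and 135 lower, and at 4 h 170 of 7672 were higher and 186 lower. Scd1 had 6.59 against 42.3 CPM at 0 h, 4.43 against 37.7 CPM at 1 h and 0.54 against 17.4 CPM at 4 h. Scd2 had 167 against 369, 101 against 275 and 29.3 against 199 CPM. Smpdl3a was higher at 0 h (17.4 against 9.64 CPM) and at 1 h (14.7 against 8.95 CPM). Fasn, the fatty acid synthase, was lower at all 3 hours (27.4 against 41.6, 35.0 against 62.2 and 36.9 against 59.5 CPM), and Mylip was lower at 0 h (4.57 against 7.80 CPM). The values of Fasn and Mylip at 0 h and of Smpdl3a at 1 h lie outside the naming rule and were chosen after they were seen. Scd1, Scd2 and Fasn are also targets of SREBP-1. The median log2 ratio of this list was -0.69, -0.83 and -1.73 at 0, 1 and 4 h, where that of all genes was -0.05, -0.05 and 0.08.

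No gene of the partner and coregulator list and none of the acyltransferase list was past the limits between DHA and Veh at any hour, with 8 to 10 and 4 to 6 genes having enough cells. Of the sterol list, Stard4, a cholesterol carrier, was lower at all 3 hours (33.8 against 57.6, 51.5 against 90.2 and 29.2 against 48.1 CPM). Npc1 was higher at 1 h (32.2 against 20.3 CPM) and Nceh1, a cholesteryl ester hydrolase, at 4 h (57.3 against 34.3 CPM). Lmf1 had log2 ratios of 0.17, 0.12 and 0.27, inside the limits.

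The DHA libraries had lost more barcodes to the mitochondrial limit than the Veh libraries, and their mitotic genes also differed. The median log2 ratio of 17 mitotic genes, DHA against Veh, was -0.42 at 0 h, -0.51 at 1 h and 0.65 at 4 h. When cells at equal depth were split at 19 mitotic UMIs, Lpl at 4 h was 0.48-fold (0.47 to 0.49) Veh in cells at or below the split and 0.47-fold (0.45 to 0.49) in cells above it. At 0 h Abcg1 was 0.56-fold (0.44 to 0.70) and 0.69-fold (0.53 to 0.89), and Pltp 1.56-fold (1.24 to 1.956) and 1.66-fold (1.29 to 2.11). Abcg1 in cells above the split was thus inside the limit of 1.5-fold. With a mitochondrial limit of 10% the same members were past the limits at all 3 hours. Over all deposited barcodes Pltp was not counted at 0 h because it missed the share of cells, which 4 members in place of 5 met there.

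The lower Lpl of DHA.LPS.4 was spread over its cells. In cells thinned to 20000 UMIs the median was 19 Lpl UMIs in Con, 30, 26 and 29 in Veh at 0, 1 and 4 h, and 32, 24 and 10 in DHA. The middle 50% of cells ran from 6 to 20 Lpl UMIs in DHA.LPS.4 and from 16 to 46 in Veh.LPS.4. Under 10 Lpl UMIs were found in 45.4% of DHA.LPS.4 cells, in 21.4% of Con cells and in 6.33% to 15.0% of the cells of the other 5 libraries.

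**Figure D3:**
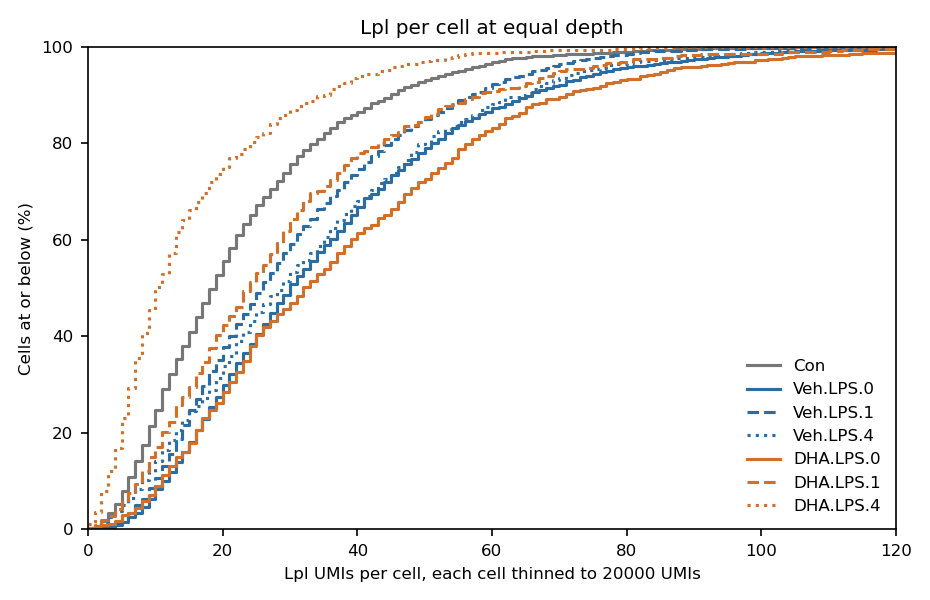
Cumulative share of cells (vertical axis, %) against Lpl UMIs per cell (horizontal axis) after thinning each cell to 20000 UMIs, 1 line per library, solid for Con and 0 h, dashed for 1 h and dotted for 4 h. The dotted orange line of DHA.LPS.4 lies left of all others, crossing the middle at 10 UMIs, where that of Veh.LPS.4 crosses it at 29.

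Within each library Lpl varied with the cell cycle. Cells were ranked by their summed UMIs of 17 mitotic genes, and the highest and lowest tertiles compared. The Lpl level of the highest tertile was 0.69-fold that of the lowest in Con (0.68 to 0.71), 0.54-fold in Veh.LPS.0 (0.53 to 0.55), 0.59-fold in Veh.LPS.1, 0.60-fold in Veh.LPS.4 (0.58 to 0.61), 0.60-fold in DHA.LPS.0, 0.56-fold in DHA.LPS.1 and 0.64-fold in DHA.LPS.4 (0.61 to 0.67). Cells with more mitotic UMIs thus had less Lpl in all 7 libraries. Abcg1 had ratios of 0.69 (0.59 to 0.81) in Veh.LPS.0 and 0.72 (0.60 to 0.87) in Veh.LPS.1, and 0.89 (0.79 to 0.996) in Con, with intervals that held 1 in the other libraries. With cells thinned to 10000 UMIs the Abcg1 intervals of Veh.LPS.1 (0.72 to 1.21) and Con (0.76 to 1.05) also held 1. Cells are not replicates, and these intervals say nothing of other cultures.

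Other rankings split the libraries. By the 20 cholesterol synthesis enzymes, Lpl was 1.36-fold (1.32 to 1.39) in the highest tertile of Veh.LPS.4 and 1.17-fold to 1.28-fold in the DHA libraries, but 0.93-fold in Con and 0.94-fold in Veh.LPS.0. By Plin2, the lipid droplet protein, Lpl was 0.73-fold (0.70 to 0.75) in DHA.LPS.1 and 0.81-fold (0.79 to 0.83) in Veh.LPS.4, and Abcg1 0.57-fold (0.38 to 0.85) in DHA.LPS.0. With cells thinned to 10000 UMIs these ratios were 0.75 (0.72 to 0.79), 0.95 (0.91 to 0.98) and 0.69 (0.38 to 1.22), so the last interval held 1. By 24 type I interferon genes, Lpl was 1.23-fold (1.19 to 1.26) in Veh.LPS.4, 0.76-fold (0.74 to 0.79) in DHA.LPS.1 and 0.99-fold (0.94 to 1.03) in DHA.LPS.4. By the cholesterol enzymes, Lpcat3 was 1.21-fold (1.09 to 1.35), 1.26-fold (1.14 to 1.39) and 1.42-fold (1.15 to 1.77) in Veh at 0, 1 and 4 h and 1.46-fold (1.18 to 1.82) in DHA.LPS.0. Its intervals held 1 in Con (1.06), DHA.LPS.1 (1.12) and DHA.LPS.4 (0.81), and at 10000 UMIs also in Veh.LPS.0 (0.99 to 1.33).

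**Figure D4:**
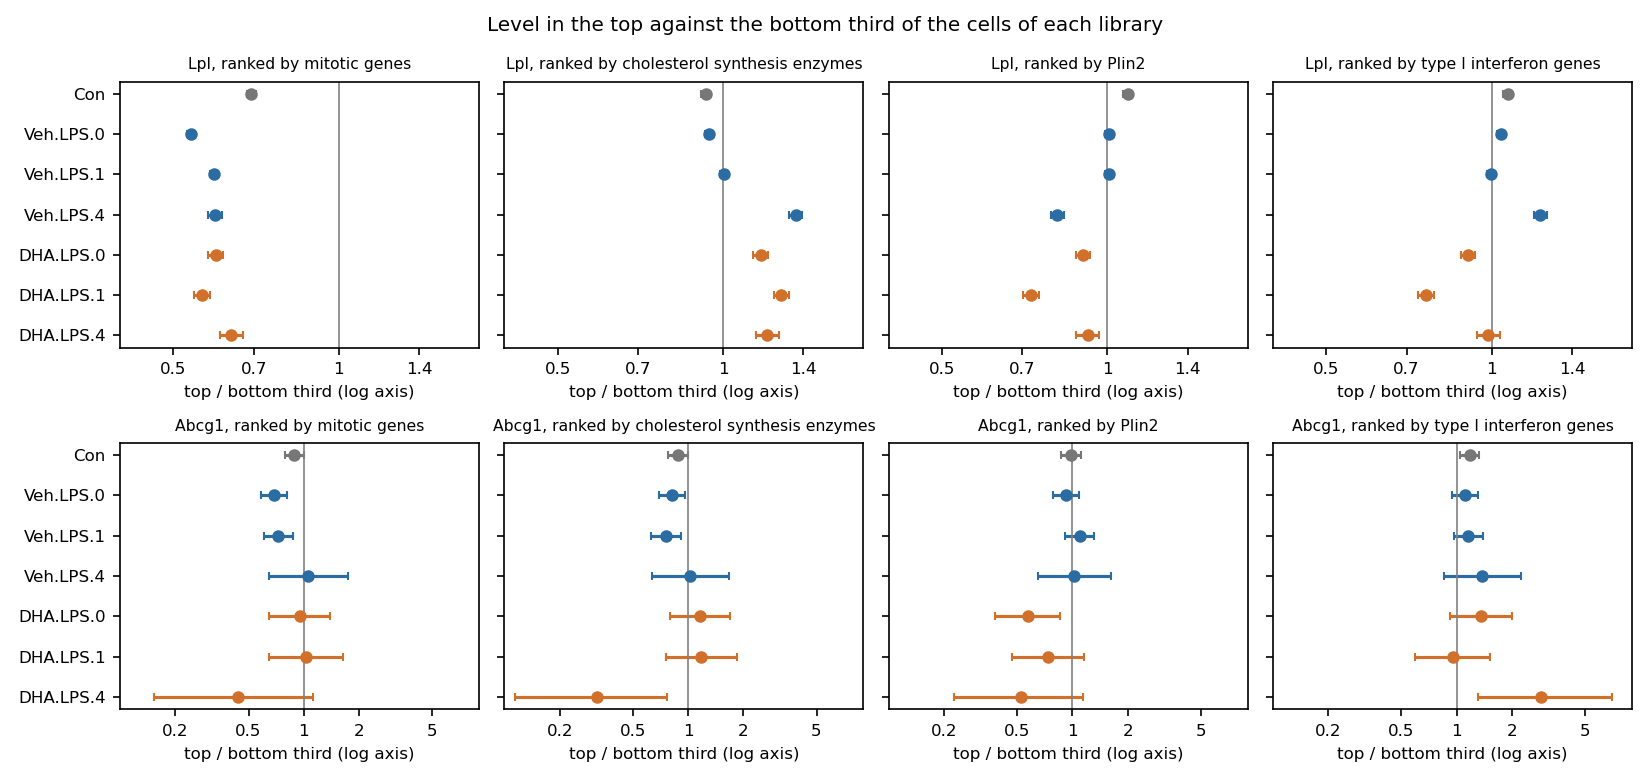
Ratio of the level in the top over the bottom tertile of cells of each library (horizontal, log axis; bars, 95% counting interval) for Lpl (upper row) and Abcg1 (lower row), with cells ranked by mitotic genes, cholesterol synthesis enzymes, Plin2 or type I interferon genes. Lpl lies left of 1 for mitotic genes in all 7 libraries, from 0.54 to 0.69, and on both sides of 1 for the other rankings.

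Genes with the most similar course over the 7 libraries were sought among 8766 genes by the root mean square difference of centered log2(CPM + 1) profiles. Nearest to Abcg1 were the integrin subunit Itga4 (0.17), Fgd2 (0.18) and Ly86 (0.23), over a range of 2.90 for Abcg1 itself. Nearest to Lpl were Phf11d (0.16), Phf11b (0.16) and the ubiquitin-like activating enzyme Uba7 (0.17), and to Pltp Nrp1 (0.10), Copz2 (0.11) and Insl6 (0.12). Nearest to Lpcat3 were Gmfg (0.08), Gnas (0.09) and Hint3 (0.10), and to Nr1h2 Rab7, Lrp10 and Taf15 (each 0.05). No member was among the nearest 3 of another. For the sparse genes the added 1 flattens the profile: nearest were Naa25, Sltm and Syvn1 to Abca1, Polr3a, Mettl4 and Tprkb to Nr1h3, and Tuba1c, Mepce and Ing5 to Apoe.

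**Figure D5:**
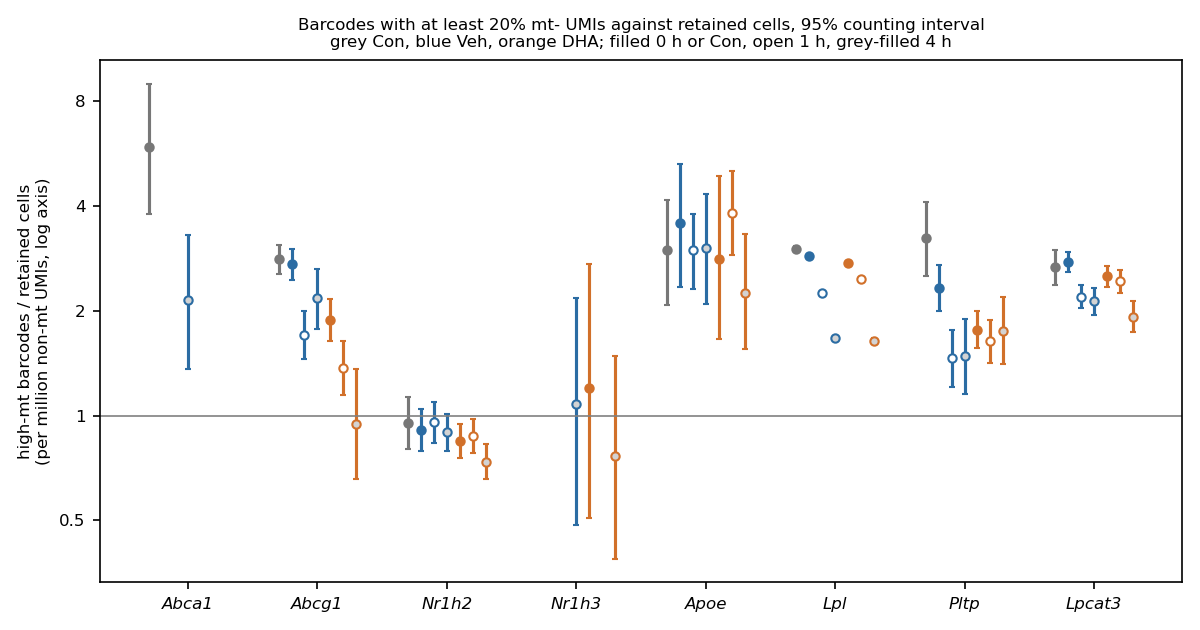
Level in barcodes with at least 20% mitochondrial UMIs over that in retained cells (vertical, log axis), per 1000000 UMIs that are not mitochondrial, for each member and library with at least 10 UMIs in both, with the 95% counting interval. Lpl, Lpcat3, Apoe and Pltp lie above 1 in all 7 libraries, and Nr1h2 between 0.74 and 0.96.

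Barcodes left out for their mitochondrial share held these genes in other proportions than the retained cells. Per 1000000 non-mitochondrial UMIs, the ratio of left-out barcodes to cells was 1.63 to 3.02 over the 7 libraries for Lpl, 1.92 to 2.75 for Lpcat3, 2.25 to 3.80 for Apoe and 1.46 to 3.23 for Pltp. It was 0.95 to 2.81 for Abcg1 and 0.74 to 0.96 for Nr1h2. In these barcodes Lpl had 1371 UMIs per 1000000 in DHA.LPS.4 and 2937 in Veh.LPS.4, the same order as in the cells, and 5712 and 5473 at 0 h.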

How the data were processed

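Single-cell RNA of FLMs was captured with 10x Chromium 3' chemistry. The authors deposited raw UMI counts per gene and barcode, made with Cell Ranger 3.1.0 and the mm10 build per the file headers and the submitters' processing notes; the methods of the study name another Cell Ranger version. Barcodes called as cells were deposited without the study's later limits, which were applied here. UMIs were summed over cells and scaled to CPM. CPM intervals are exact Poisson, shares and ratios exact binomial, and differences of LPS effects use a normal approximation on the log of summed counts. Barcodes in more than 1 library made up at most 0.434% of cells. Doublets were not called. All 8 members were named, and from each list at most the 3 genes past the limits with the largest log2 ratio per comparison. The members and lists were chosen with earlier results of these data known. Alternatives were TMM (edgeR 4.0.16) and median-of-ratios scaling, other limits on cells and shares and other summaries. Total of non-mitochondrial UMIs, removal of the 5% of cells with the most UMIs, the 2-fold limit, the mitotic split and the ranking by mitochondrial share were added after seeing the data. Python 3.11.15, NumPy 2.4.6, SciPy 1.17.1 and R 4.3.3 were used, and the ratios and calls were tested on simulated data. Gene positions came from a RefSeq table of GRCm38.p6 that carries no sequence. The interferon list held 24 of 25 genes, since Mx2 was not matched. The number of libraries, 1 per condition, sets the precision.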

Additional observations from a re-analysis of the deposited data

Results flagged for a closer look

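Lpl was the 1 member whose DHA effect pointed opposite ways at different hours with counting intervals clear of 0 when scaled by library totals. The log2 ratio of DHA to Veh was 0.13 (0.12 to 0.14) at 0 h, -0.0248 (-0.04 to -0.01) at 1 h and -1.06 (-1.09 to -1.04) at 4 h of LPS. The difference between hours was not tested, since each ratio compares 1 library with 1 library. The values at 0 h and 1 h lay inside the limit of 1.5-fold. Their intervals leave out the spread of Lpl between cells, which was far above counting error, so the small value at 1 h shows no direction. The direction at 1 h rests on the scaling: it was 0.00619 with TMM and 0.00576 with median-of-ratios scaling. The higher level at 0 h was not seen within the parts of the mitotic split. There Lpl was 0.98-fold (0.965 to 0.999) Veh in cells at or below 19 mitotic UMIs and 1.003-fold (0.979 to 1.03) above. At 1 h the same parts gave 0.91-fold (0.90 to 0.93) and 0.86-fold (0.84 to 0.88). With TMM scaling Lpl stayed past the limits at 4 h.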

How the results depend on the processing

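No paired analysis was possible because each condition had 1 library and no replicate numbers. The number of members past the limits changed by more than 1.5 times as follows. No member past the limits changed direction, but 24 of 704 recomputed ratios changed sign, all of them inside the limits or in too few cells. Dropping the limit on the share of cells gave 5 members in place of 3 for Veh.LPS.0 against Con, 3 in place of 1 for Veh.LPS.1 against Veh.LPS.0, 4 in place of 2 for DHA against Veh at 0 h and 3 in place of 1 at 4 h, 2 in place of 0 for DHA.LPS.1 against DHA.LPS.0, and 6 in place of 3 for DHA.LPS.4 against DHA.LPS.0. The members added were Abca1, Apoe, Nr1h3 and, at 4 h of DHA against Veh, Abcg1. Here genes needed at least 10 UMIs over both libraries, and many passed. Higher and lower were 2565 and 1183 of 13219 genes for serum and 1294 and 1721 of 13393 for Veh.LPS.1. For DHA against Veh they were 666 and 745 of 12827 at 0 h, and 935 and 896 of 12061 at 4 h. For LPS in DHA they were 1056 and 1464 of 12260 at 1 h, and 1371 and 4683 of 11987 at 4 h. A limit of 50% of cells gave 0 for Veh.LPS.1 and 1 for Veh.LPS.4 against Veh.LPS.0, 0 for DHA against Veh at 0 h and 1 for DHA.LPS.4 against DHA.LPS.0. Of all genes, in the same order, 253 of 5777, 719 of 6297, 56 of 6276 and 625 of 6318 were higher. Those lower were 120, 2053, 43 and 1851. The stricter share of 50% with a limit of 2-fold, added after seeing the data, gave 1 for Veh.LPS.0 against Con, 0 for Veh.LPS.1 and 0 for Veh.LPS.4 against Veh.LPS.0, 0 for DHA against Veh at 0 h and 1 for DHA.LPS.4 against DHA.LPS.0. Of all genes, in the same order, 157 of 6168, 138 of 5777, 381 of 6297, 13 of 6276 and 318 of 6318 were higher. Those lower were 46, 35, 1066, 7 and 844. TMM and median-of-ratios scaling both gave 0 for Veh.LPS.1 and 1 for Veh.LPS.4 against Veh.LPS.0. With TMM 406 of 8089 genes were higher and 256 lower at 1 h, and 1813 of 8385 higher and 1769 lower at 4 h. With median-of-ratios scaling these were 445 and 234 at 1 h, and 1875 and 1733 at 4 h. All deposited barcodes gave 1 in place of 2 for DHA against Veh at 0 h. The sign changes were 6 with TMM and 6 with median-of-ratios scaling, which gave Lpl log2 ratios of 0.32 and 0.34 in place of -0.11 for Veh.LPS.4 against Veh.LPS.0, and 8 with all deposited barcodes, which gave Lpl 0.30 in place of -0.0248 and Lpcat3 0.01 in place of -0.29 for DHA against Veh at 1 h. All deposited barcodes also gave Apoe 0.23 in place of -0.44 at 1 h and Lpcat3 0.01 in place of -0.21 at 0 h. The other 68 recomputed counts were within 1.5 times of the main ones; of the other values 803 stayed within their spread and 166 moved. The depth limits Abca1, Nr1h3 and Apoe most: in the smallest library 3 UMIs are 0.14 CPM.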

Other observations

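Ranked by mitochondrial share within the retained cells, the highest tertile of cells had 1.16-fold to 1.58-fold the Lpl of the lowest in the 7 libraries, 1.16-fold (1.13 to 1.19) in Veh.LPS.4 and 1.58-fold (1.501 to 1.65) in DHA.LPS.4. The same ranking gave Abcg1 ratios of 1.20 (1.06 to 1.35) in Con, 1.22 (1.04 to 1.43) in Veh.LPS.0 and 1.30 (1.09 to 1.55) in Veh.LPS.1. In DHA.LPS.4 it gave Abcg1 3.67 (1.44 to 11.1) on 22 against 6 UMIs and Pltp 2.06 (1.12 to 3.92) on 35 against 17 UMIs, and in Veh.LPS.0 it gave Pltp 1.25 (1.003 to 1.57). The other intervals of Abcg1 and Pltp held 1. Abca1 in Con had 30 UMIs in the barcodes left out for their mitochondrial share, which is 5.92-fold (3.80 to 8.97) its level in the retained cells per 1000000 non-mitochondrial UMIs, against 2.14-fold (1.36 to 3.30) in Veh.LPS.4. These values are given without an explanation, and the part of RNA quality in the levels of the retained cells was not tested.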
